A study of Mus musculus with 6 samples.

Results

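The collagens were taken as all non-control probes whose gene name was Col, a number, a and a number, which gave 91 probes of 44 genes among 37318 genes with values. They were divided by textbook class into 11 fibrillar chains, 6 type IV chains and 27 other chains. The tissue was cochlea of female C57BL/6 mice aged 6 weeks, with 6 groups of 6 mice and 1 one-colour Agilent array per group. Baseline mice had neither noise nor drug, and noise-only mice had 2 h of intense noise, with no time of dissection given for them. The remaining 4 groups had the same 2 h of noise and then, at once, an intraperitoneal injection of either dexamethasone sodium triphosphate at 10 mg/kg or saline, and their cochleae were taken 12 h or 24 h later. Thus 5 of the 6 groups were exposed to noise, and each saline array was the control of the dexamethasone array of its time. The labels leave unsaid whether RNA was pooled within a group.

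Collagens are extracellular proteins whose chains wind around each other into a rod-like helix built on the repeat Gly-X-Y, in which glycine recurs at fixed spacing. Fibrillar chains assemble into the cable-like fibrils of bone, cartilage, tendon and fibrous tissue, type IV chains form the sheet-like network of basement membranes, and the remaining classes link fibrils, anchor epithelia or span cell membranes. In the cochlea, collagens II, IX and XI are known as constituents of the tectorial membrane, type IV collagen lines the vessels of the stria vascularis and the basement membranes of the epithelium, and the bony capsule around the organ is rich in type I collagen.

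The repeat is visible in the array itself. In 4 of the 91 collagen probes (4.4%) the 60 bases read as glycine codons, GGN, at each Gly-X-Y repeat, against 5 of 56514 probes of other genes (0.00885%). They are shown because the value of Col15a1, and one of the probe readings of Col6a3, Col5a3 and Col11a2, come from them. Each is written 5′ to 3′ with the glycine codons in capitals, and the positions that follow are those of the deposited files on mm9.
Col15a1: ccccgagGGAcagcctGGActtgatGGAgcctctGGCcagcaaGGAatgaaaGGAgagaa
Col6a3: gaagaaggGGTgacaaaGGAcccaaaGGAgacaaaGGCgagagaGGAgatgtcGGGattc
Col5a3: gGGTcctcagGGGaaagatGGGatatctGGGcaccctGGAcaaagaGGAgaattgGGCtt
Col11a2: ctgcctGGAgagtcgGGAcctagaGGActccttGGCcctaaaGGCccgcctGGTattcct
These lie at chr4:47283786-47283845 (Col15a1), chr1:92689602-92690594 (Col6a3), chr9:20590066-20590795 (Col5a3) and chr17:34189287-34189453 (Col11a2). The last 3 spans are longer than the 60 bases of a probe.

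Of the 44 collagens, 39 were well above background on all 6 arrays and Col6a6 on none. Levels below are processed signals scaled so that the 75th percentile of each array is 100, and no probe's level is set against that of another probe. Summed signals of a list add the levels of different probes. The brightest genes of the list therefore weigh most, and its sum and its median can differ in direction. With 1 array a group there is no p-value between 2 arrays. A gene was measured in a comparison if well above background on both arrays. Folds carry a nominal 95% interval from the spot error that the scanner's software assigns, which leaves out the spread between mice. For bright probes this error was nearly constant, at 0.204 on the log2 scale for Col1a1 and for Col1a2 with noise only. It was larger for dim probes, at 0.281 for Col15a1. The interval is thus close to a fixed margin for bright probes. The median SD over probes spotted 10 times was smaller, at 0.035 to 0.038 per array. Whether the intervals hold their 95% level was not tested. Per array, 63.0% to 70.3% of probes were well above background, the 75th percentile lay between 537 and 679 units and no spot was saturated. Both 12 h arrays were on slide 2 and the other 4 on slide 1, so for the saline 12 h array against baseline slide and group cannot be told apart. The 3 comparisons with baseline share that array, and each saline array serves both a comparison with baseline and one with dexamethasone. Of 12 cochlear markers, 10 were well above background on all 6 arrays, among them Coch and Otos, and the outer hair cell gene Slc26a5 on none.

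Noise only against baseline compares exposed with unexposed cochleae without injection. Fibrillar collagens were lower in the noise-only cochlea, by a median of 1.47-fold, while type IV chains were close to baseline. Of 43 collagens measured, 11 were at least 2-fold lower (background 3.18% of 24161 genes) and 1 at least 2-fold higher (background 2.64%). The median log2 difference was -0.27 over collagens, -0.55 over the 11 fibrillar chains, -0.05 over the 6 type IV chains and -0.24 over the 26 other chains measured, beside -0.01 over all genes. Of the fibrillar chains 10 were below baseline, where 52.2% of all genes were below 0, and 4 of the 11 were at least 2-fold lower.

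**Figure D1:**
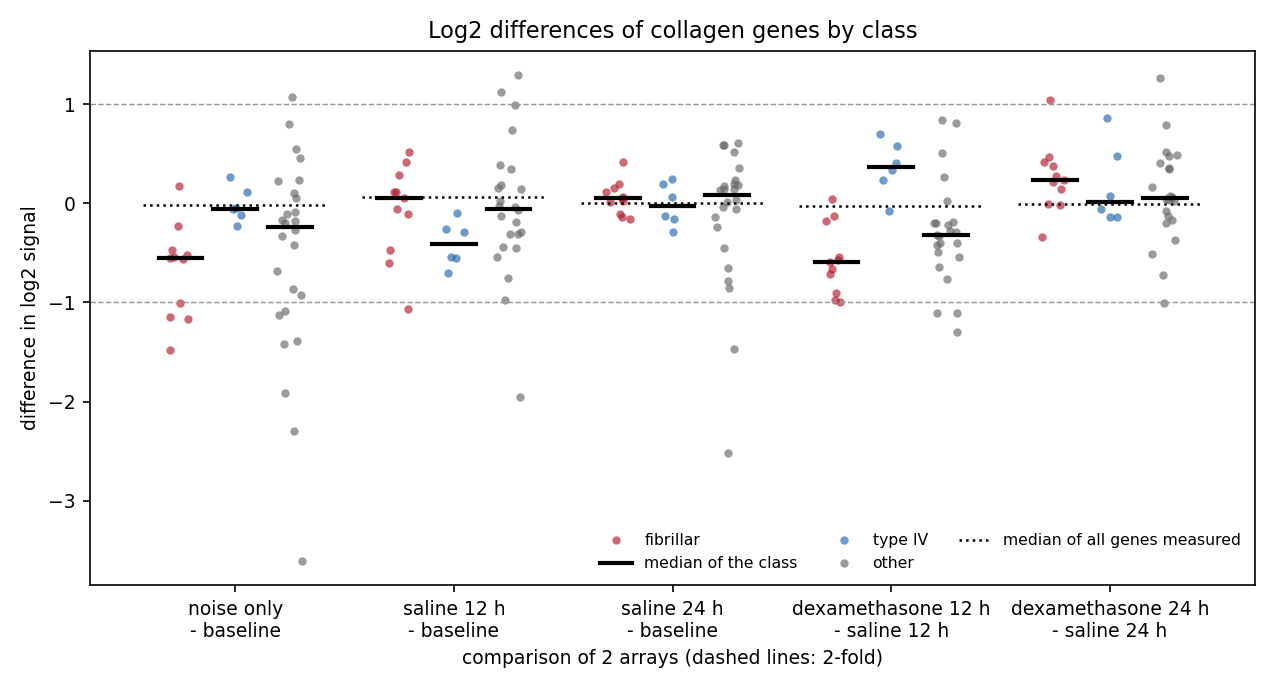
Each point is 1 collagen measured on both arrays of a comparison, and the vertical axis is its difference in log2 signal (fibrillar red, type IV blue, other grey; thick bars are class medians, the dotted line the median of all genes, dashed lines 2-fold). The fibrillar medians are -0.55 for noise only against baseline and -0.60 for dexamethasone 12 h against saline 12 h, and the type IV median of the latter is 0.37.

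Type I collagen is the main fibril of bone and fibrous tissue and is built from the chains of Col1a1 and Col1a2. Col1a1 signal was 10176.5 at baseline, 4545 after noise only, 13584 and 8564 with saline and dexamethasone at 12 h, and 10239 and 13652 with saline and dexamethasone at 24 h. Its lowest value was that of the noise-only array, 2.24-fold below baseline (interval 1.70 to 2.95). Col1a2, its partner, read 21704 at baseline, 14734 with noise only, 31016 and 20511 at 12 h (saline, then dexamethasone) and 24802 and 28819 at 24 h, so that noise only was again lowest. The noise difference of -1.16 for Col1a1 and -0.56 for Col1a2 differed by 0.60, just past the 0.57 that spot error allows. Both other Col1a1 probes above background on all arrays were lower as well, by 2.10-fold and 1.99-fold.

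Collagens V and XI are the thin chains that start and size fibrils, V in type I and XI in type II fibrils. Col11a1, the alpha 1 chain of collagen XI, read 834 at baseline, 299 with noise only, 774 and 471 at 12 h (saline, then dexamethasone), and 746 and 904 at 24 h. The noise-only value was 2.79-fold below baseline (interval 2.11 to 3.68), the widest gap among the fibrillar chains in that comparison, and 2 further probes of Col11a1 were lower by 2.21-fold and 2.09-fold. Col5a2, a chain of collagen V, read 101 at baseline, 45.4 with noise only, 104 and 53.0 at 12 h and 104 and 115 at 24 h, that is 2.22-fold lower with noise only (interval 1.68 to 2.93). On the probes used, noise only and dexamethasone at 12 h were the low arrays for both genes, and the other 4 lay near each other. A second Col5a2 probe was lowest with noise only (6.60), but with dexamethasone 12 h it read 16.6, above its 15.8 at baseline. The further Col11a1 probes read 67.6 with dexamethasone 12 h against 108 at baseline, and 11.5 against 12.2.

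Col2a1 encodes the chain of cartilage collagen II, and the same locus gives the alpha 3 chain of collagen XI. It read 631 at baseline, 314 with noise only, 681 and 341 at 12 h (saline, then dexamethasone), and 661 and 653 at 24 h. The 2 low arrays are again apart from the other 4, and noise only was 2.01-fold below baseline (interval 1.52 to 2.65), just inside the 2-fold threshold. Col11a2 read 377, 258, 362, 194, 503 and 398 for baseline, noise only, the 12 h arrays (saline, then dexamethasone) and the 24 h arrays (saline, then dexamethasone), an order that also holds for the values that follow. Its lowest array on that probe was dexamethasone at 12 h. A second Col11a2 probe had dexamethasone 12 h (28.4) above baseline (24.6).

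Col3a1, the fibril of distensible tissue, read 1838, 1328, 2243, 1543, 2043 and 2657. Noise only and dexamethasone 12 h were its lowest arrays on the probe used, at differences of -0.47 from baseline and -0.54 from saline. Its other probes had dexamethasone 12 h above baseline, at 23.4 against 18.5 and at 45.3 against 28.9. Col5a1 read 604, 421, 436, 386, 560 and 773, and Col5a3 180, 154, 195, 178, 163 and 335. Col5a1 was low on both 12 h arrays and with noise only, and Col5a3 stood out only with dexamethasone at 24 h. Col24a1, a fibrillar chain of bone, read 79.1, 53.8, 52.1, 35.1, 80.5 and 94.9. Col27a1, found in cartilage, read 82.3, 92.9, 39.3, 40.5, 89.1 and 89.0. Col27a1 was the exception among fibrillar chains: it was not lower with noise only, and its 2 low arrays on the probe used were both 12 h arrays, which share a slide.

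**Figure D2:**
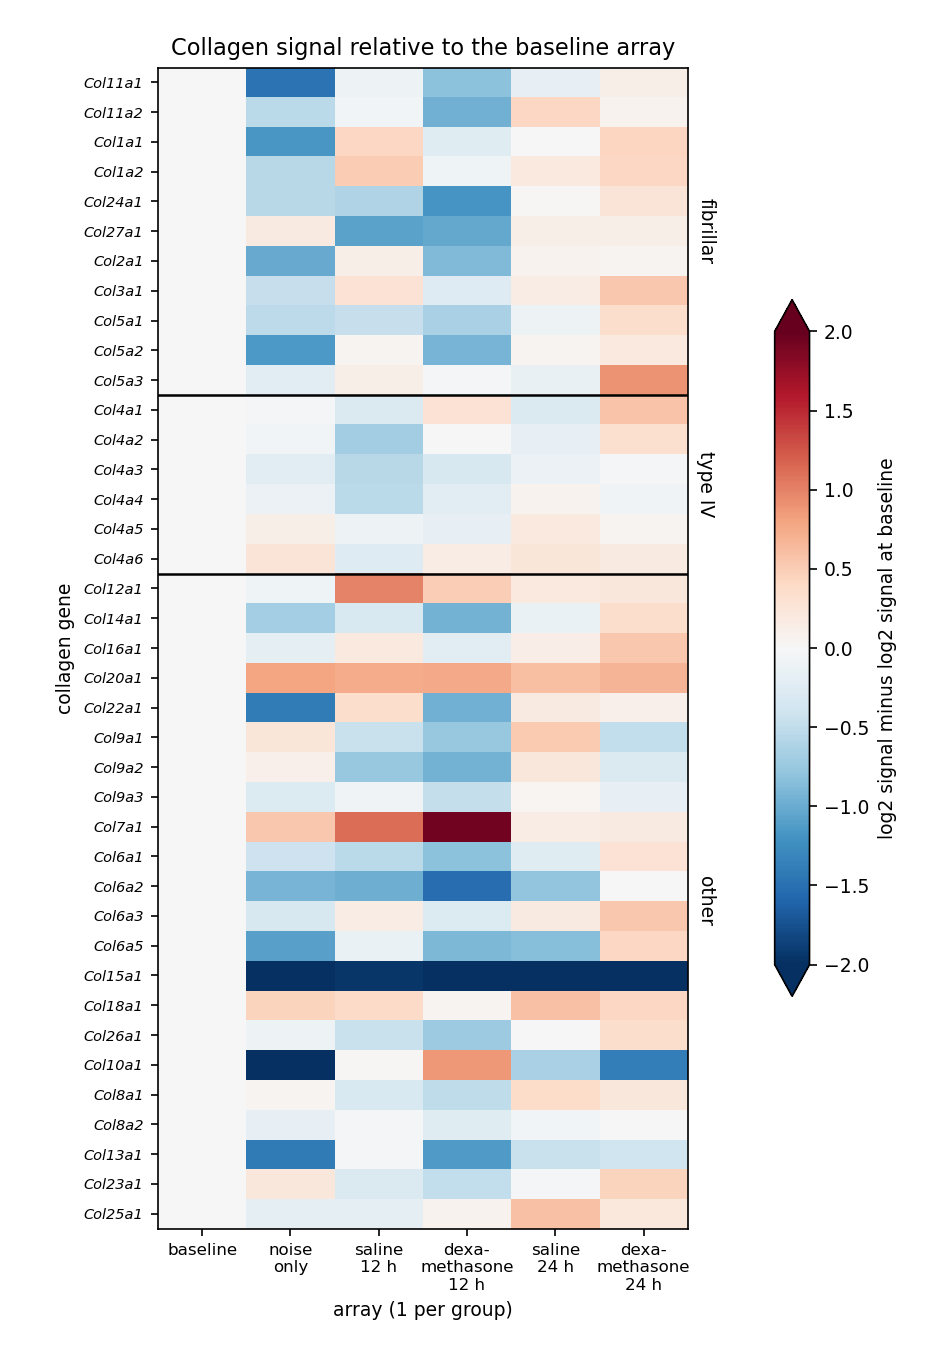
Rows are the 39 collagens well above background on all 6 arrays, grouped as fibrillar, type IV and other, columns are the arrays, and colour is log2 signal minus that at baseline, with the colour scale ending at -2 and 2. The noise-only and dexamethasone 12 h columns are blue for most fibrillar rows, and Col15a1 is below baseline on every other array.

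Across all arrays the low readings of fibrillar chains, on the probes used, mostly fell on the same pair. The noise-only array was lowest for 7 of the 11 chains and dexamethasone 12 h for 3, while dexamethasone 24 h was highest for 7. Noise only and dexamethasone 12 h were the lowest 2 arrays, in either order, for 8 of 11 fibrillar, 0 of 6 type IV and 9 of 22 other chains above background on all 6 arrays, beside 1095 of 22460 genes (4.88%). This pattern was chosen after its values were seen, and it carries no test. It reads 1 probe per gene, and its dexamethasone 12 h part depends on the probe. On other probes above background on all 6 arrays, dexamethasone 12 h was above baseline for Col3a1, Col5a2, Col11a2 and Col27a1. It was below baseline on those of Col1a1, Col1a2 and Col11a1.

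Markers of other matrix-forming cells were read beside it. Of 11 markers of bone-forming cells, 9 were below baseline with noise only at a median of -0.60, where 52.2% of all genes were below 0. Among them 4 were at least 2-fold lower (Panx3, Ibsp, Alpl and Bglap), beside 3.18% of all genes. Relative to baseline the median of these markers was -0.40 with dexamethasone at 12 h and between -0.03 and 0.07 on the 3 remaining arrays. The fibrillar median was -0.83 with dexamethasone at 12 h and 0.26 with dexamethasone at 24 h. Their summed signal ran from 20293 with dexamethasone 12 h to 28594 with saline 24 h, with 24715 at baseline and 22733 with noise only, and all 11 were well above background on all 6 arrays. In whole tissue, fewer cells of a type and less RNA per cell cannot be told apart. The 7 cartilage markers above background throughout (9 listed) had a median of -0.01 with noise only and -0.41 with dexamethasone 12 h. Marrow markers were lower still with noise only, in 9 of 9 measured at a median of -1.08, with a summed signal of 20865 against 42419 at baseline. With dexamethasone 12 h their summed signal was 48644, against 61808 with saline. The part of these cell types in the fibrillar values was not tested.

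**Figure D3:**
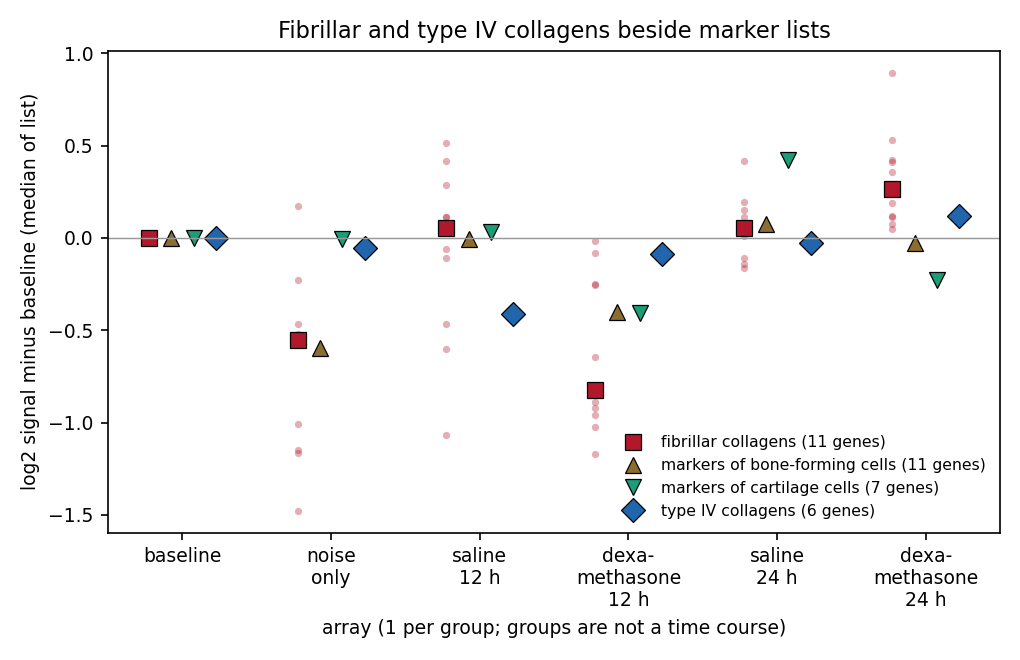
Large symbols are the medians, over the genes of a list, of log2 signal minus baseline on each array, and small points are the 11 fibrillar chains. Fibrillar collagens and bone-forming markers are both near -0.6 with noise only (-0.55 and -0.60), and cartilage markers are not. With dexamethasone 12 h the fibrillar median is -0.83, below those of bone-forming (-0.40) and cartilage markers (-0.41). Type IV collagens are lowest with saline 12 h at -0.41.

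Among the other chains, 7 of 26 were at least 2-fold lower with noise only (3.18% of all genes). Col22a1, which sits at junctions of muscle and tendon and of cartilage, read 925, 353, 1177, 477, 1047 and 990. Its 2 low arrays were the same as those of the fibrillar chains, and noise only was 2.62-fold below baseline (interval 1.99 to 3.46). Col13a1, a transmembrane collagen of cell adhesions, read 223, 83.3, 217, 101, 163 and 169, with noise only 2.67-fold lower (2.02 to 3.53), while another probe above background on all 6 arrays was -0.32 from baseline. Col10a1, the network collagen of hypertrophic cartilage, read 52.4, 10.7, 53.4, 95.5, 33.3 and 20.1, and its noise-only value was 4.90-fold below baseline (3.64 to 6.61). Unlike the fibrillar chains it was highest with dexamethasone at 12 h.

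Col15a1, whose product lies between basement membranes and fibrils, read 48.2 at baseline and 3.95, 12.5, 5.78, 8.40 and 9.39 on the 5 arrays of noise-exposed mice. The baseline array was above all 5, and noise only was 12.2-fold below it (interval 8.32 to 17.9). This rests on the helix probe printed above, since the other Col15a1 probe was above background on 1 array. The saline arrays were 3.87-fold lower at 12 h and 5.74-fold lower at 24 h.

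Type VI collagen forms beaded filaments around cells. All 5 of its chains measured were below baseline with noise only on the probes used (median -0.86), where 52.2% of all genes were below 0. Among them Col6a5 read 31.6, 14.9, 28.9, 17, 17.5 and 42 and was 2.12-fold lower with noise only. Other probes of Col6a3 were at 0.20 and -1.02, and those of Col6a2 at -0.43 and -0.15, against -0.92 on the Col6a2 probe used. Col6a4 was dim, at 6.22 at baseline and 3.43 with noise only. Col28a1 was well above background on 4 arrays and read 10.4 at baseline and 4.77 with noise only, 2.18-fold lower. Col19a1, also above background on 4 arrays, was the 1 chain at least 2-fold higher, at 9.35 with noise only against 4.45, that is 2.10-fold (1.43 to 3.09). All 9 other probes measured of the genes at least 2-fold apart had the direction of the probe used.

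The saline arrays against baseline compare cochleae 12 h and 24 h after noise and saline with unexposed ones. At 12 h, 2 of 41 collagens measured were at least 2-fold higher (background 4.41% of 24285 genes) and 2 at least 2-fold lower (background 3.42%). These shares were near the background, and under spike-in scaling 0 were higher and 18 lower, with 30.6% of all genes lower. The fibrillar median was 0.05, beside 0.06 over all genes, and turned negative (-0.04) with quantile normalization and with spike-in scaling, which moved the median of all genes to -0.75 and the fibrillar one to -0.76. Type IV chains were below baseline in 6 of 6, where 44.8% of all genes were below 0, with a median of -0.41. At 24 h, 0 of 41 collagens were at least 2-fold higher (background 1.72% of 22966 genes) and 2, Col15a1 and Col17a1, at least 2-fold lower (background 1.72%). The 24 h medians were 0.05 for fibrillar, -0.03 for type IV and 0.08 for other chains, beside 0.01 for all genes. Under spike-in scaling the fibrillar and other medians turned negative together with that of all genes, at -0.29.

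Type IV collagen is a network of distinct chain trios, of which alpha 1 with alpha 2 is general and alpha 3, 4 and 5 and alpha 5 with 6 are specialised. The starts of Col4a1 and Col4a2 lie 21 bases apart on opposite strands of chromosome 8, and those of Col4a5 and Col4a6 1343 bases apart on the X chromosome (RefSeq, GRCm38.p6). Col4a1 read 254, 246, 208, 310, 208 and 378 and Col4a2 read 217, 208, 133, 216, 194 and 269. Both were highest with dexamethasone at 24 h, and the saline arrays were their 2 lowest. Saline 12 h differed from baseline by -0.29 for Col4a1, within spot error, and by -0.70 for Col4a2 (interval -1.10 to -0.30).

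Col4a3 read 10.3, 8.75, 6.98, 8.22, 9.42 and 9.94 and Col4a4, its neighbour on chromosome 1, read 40.0, 36.8, 27.5, 34.7, 41.8 and 38.0. Both were lowest with saline at 12 h. Col4a5 read 51.9, 56.2, 48.5, 46.1, 59.2 and 53.8 and Col4a6 read 30.6, 36.8, 25.6, 33.9, 36.3 and 34.8. The saline 12 h array was lowest for 5 of the 6 chains, Col4a5 being the exception with dexamethasone 12 h.

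Laminins, nidogens and perlecan, the other parts of basement membranes, leaned the same way on that array. Of 15 such genes 11 were below baseline with saline at 12 h (median -0.32), where 44.8% of all genes were below 0. They were led by Lamc1 (-0.67), Nid1 (-0.66), Lama1 (-0.65) and Lama3 (-0.64), and 0 were at least 2-fold lower (3.42% of all genes). Of 7 endothelial markers 5 were lower at a median of -0.44, and their summed signal was 2081 against 1782 at baseline. Schwann cells, which also lay down a basement membrane, had a marker median of -0.65 and a summed signal of 22885 against 32609. Whether these cell types, or the slide, bear on the type IV values was not tested.

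Col7a1 and Col17a1 attach epithelia to the tissue beneath, Col7a1 as the anchoring fibril and Col17a1 as a transmembrane protein of hemidesmosomes. Col7a1 read 72.4, 106, 157, 276, 80.1 and 82.2. Col17a1 read 22.3, 5.91, 54.6, 77.4, 8.06 and 4.01, the last not well above background. Both were highest on the 12 h arrays: with saline 12 h, Col7a1 was 2.17-fold (1.64 to 2.87) and Col17a1 2.45-fold (1.85 to 3.25) above baseline. With noise only, Col17a1 was 3.77-fold below baseline, and with saline 24 h 2.76-fold. A second Col17a1 probe was 1.29-fold higher with saline 12 h and 1.72-fold lower with noise only, so these sizes depend on the probe. Markers of epidermis (5 with probes, among them Krt5, Krt14 and Lor) were, like Col17a1, high on the 12 h arrays and low on the other exposed ones: their summed signal was 1941 at baseline, 246 with noise only, 6859 and 4929 on the saline and dexamethasone arrays of 12 h, and 693 and 286 on those of 24 h. Between the 12 h arrays they parted, with 4 of 5 markers lower with dexamethasone (median -0.53, beside 52.9% of all genes below 0) and Col17a1 1.42-fold higher. Skeletal muscle markers were also highest with saline 12 h (66191 against 21608 at baseline). Their part in the collagen values was not tested.

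**Figure D4:**
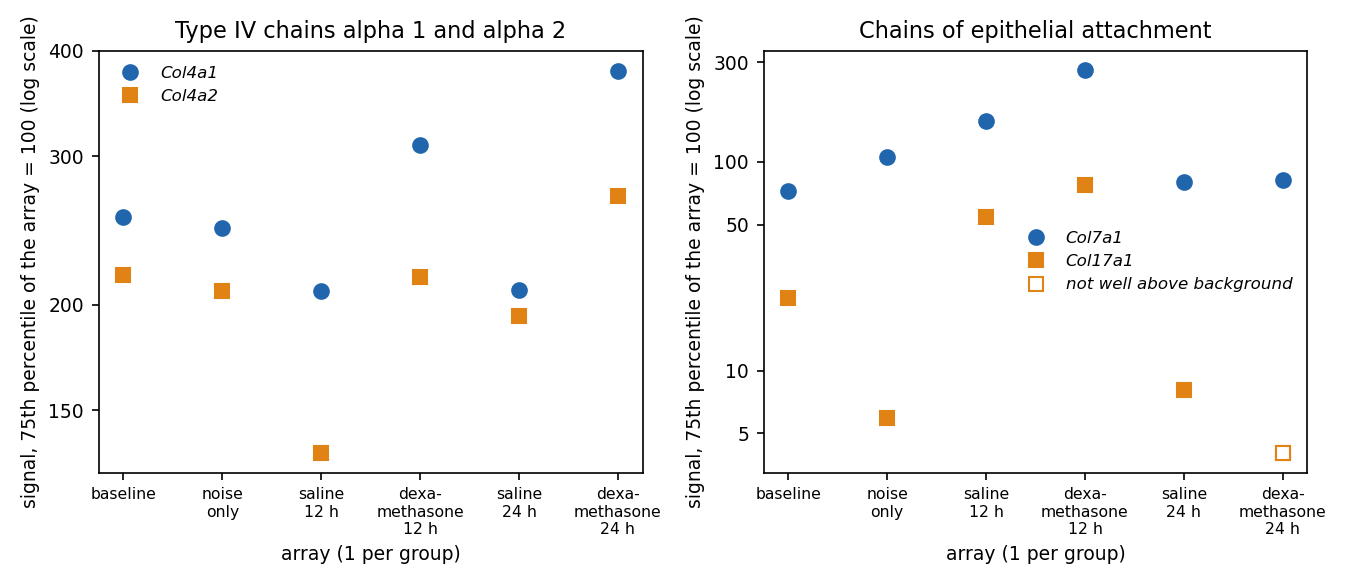
Signals of Col4a1 and Col4a2 (left) and of Col7a1 and Col17a1 (right) are plotted per array on a log axis, where 100 is the 75th percentile of the array; heights of different genes cannot be compared. Col4a1 and Col4a2 are highest with dexamethasone 24 h (378 and 269), Col7a1 and Col17a1 with dexamethasone 12 h (276 and 77.4), and the open square is a value not well above background.

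The other chains at least 2-fold apart at 12 h were lower, namely Col15a1 and Col27a1 (2.10-fold, 1.59 to 2.77). A second Col27a1 probe, also above background on all 6 arrays, was at -0.14, so this call rests on 1 probe. On the probe used, Col28a1 was well above background at baseline but not with saline. It was at least 4.01-fold lower there at 12 h and at least 2.63-fold lower at 24 h. Such bounds set the measured level against the higher of the dim reading and the lowest signal well above background on that array. They leave out spot error. A second Col28a1 probe, measured on both arrays at 12 h, was only -0.26 from baseline, and at 24 h it was 1.29-fold lower. The size of this fall thus depends on the probe. Agreement between probes was weaker here: 16 of 29 other probes measured had the direction of the probe used at 12 h and 15 of 26 at 24 h, against 23 of 29 for noise only.

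Dexamethasone against saline at 12 h compares 2 arrays of 1 slide. Fibrillar chains were lower with dexamethasone, by 1.51-fold at the median, and type IV chains were higher, by 1.29-fold. Of 40 collagens measured, 3 were at least 2-fold lower (background 1.88% of 24179 genes) and 0 at least 2-fold higher (background 1.67%). Under spike-in scaling the split turned to 1 lower (background 0.757%) and 2 higher (background 3.49%). Of the 11 fibrillar chains 10 were below saline, where 52.9% of all genes were below 0, with a median log2 difference of -0.60 beside -0.02 for all genes. Under spike-in scaling the fibrillar median was -0.30 with that of all genes at 0.27, and under quantile normalization -0.39.

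Col2a1 and Col5a2 fell just short of 2-fold at -0.997 and -0.98, followed by Col11a2 (-0.90), Col11a1 (-0.72), Col1a1 (-0.67) and Col1a2 (-0.60). Col27a1 alone was not lower, at 0.04. The 3 chains past 2-fold were Col22a1, at 2.47-fold lower (1.87 to 3.25), Col15a1, at 2.16-fold (1.48 to 3.15), and Col13a1, at 2.15-fold (1.63 to 2.84). The probes agreed well in direction, with 27 of 29 other probes in the direction of the probe used. In size, the other Col22a1 probe was 2.38-fold lower, and those of Col13a1 were 1.84-fold and 1.19-fold lower. The other Col15a1 probe was above background on 1 array only. Bone-forming markers were again lower beside the fibrillar chains, at a median of -0.55 with 9 of 11 below saline. Of them 3 were at least 2-fold lower (Bglap, Panx3 and Alpl). Of all genes, 52.9% were below saline and 1.88% at least 2-fold lower.

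Of the 6 type IV chains 5 were above saline at 12 h, where 47.1% of all genes were above 0, and Col4a5 was not. Col4a2 was 0.69 higher (interval 0.30 to 1.09), Col4a1 0.57, Col4a6 0.40, Col4a4 0.34 and Col4a3 0.24, while Col4a5 was at -0.07. The type IV median was 0.37, and 0.66 under spike-in scaling. Of 15 basement membrane partners 13 were above saline (median 0.23), with Lamc3 at 0.63, Lama2 at 0.36 and Lamb3 at 0.36, and perlecan (Hspg2) at -0.54. Endothelial markers had a median of 0.01 and mural cell markers one of 0.23 in this comparison.

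At 24 h the fibrillar chains lay above saline instead. Of 39 collagens measured, 2 were at least 2-fold higher (background 1.63% of 22710 genes) and 1 at least 2-fold lower (background 1.53%). With normexp and quantile normalization 0 were 2-fold apart, and with the mean over probes 3 were higher and 0 lower. The median was 0.24 over fibrillar chains, of which 8 of 11 were above saline (49.2% of all genes), 0.01 over type IV chains and 0.06 over other chains, beside 0.00 over all genes; under spike-in scaling the type IV and other medians turned negative (-0.083 and -0.036), and under quantile normalization the type IV one (-0.023). Col5a3 was 2.05-fold higher with dexamethasone (interval 1.55 to 2.71). Type VI filaments were higher in 4 of 4 chains measured, with a median of 0.66: Col6a5 by 2.40-fold (1.78 to 3.25), Col6a2 by 0.79, Col6a1 by 0.52 and Col6a3 by 0.36 on the log2 scale. Col6a2, a core chain of the filament, read 169, 88.9, 85.8, 58.8, 98.1 and 170, so that baseline and dexamethasone 24 h were high and the other 4 low on the probe used. Of its other probes, both above background on all 6 arrays, one was 0.86 higher with dexamethasone 24 h and the other 0.014.

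The probes of Col6a3, the largest type VI chain, parted at 24 h. The helix probe printed above read 8.83, 4.34, 16.3, 12.5, 6.54 and 43.0, and a second probe at chr1:92690484-92690543 read 8.05, 9.25, 9.0, 8.92, 8.20 and 40.2. Both were far above the other arrays with dexamethasone 24 h, by 6.57-fold and 4.91-fold over saline, while the probe used for the gene (chr1:92663663-92663722) read 334, 267, 371, 277, 379 and 486 and was 1.28-fold higher. The Col6a3 differences at 24 h thus depend on which probe is read.

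Col9a1, a chain of collagen IX, which decorates type II fibrils, read 153, 181, 113, 90.7, 220 and 109 and was 2.01-fold lower with dexamethasone at 24 h (1.52 to 2.65), just inside the threshold. Cartilage markers were lower beside it, at a median of -0.65 over 7 measured, and their summed signal was 4388 with dexamethasone against 7288 with saline. Cochlear markers had a median of -0.59 and a summed signal of 22548 against 36450. The part of these tissues in the Col9a1 value was not tested. On the probes used, Col28a1 was at least 2.61-fold higher with dexamethasone, and Col17a1 at least 2.01-fold lower. The other Col17a1 probe went the opposite way, at 5.93 with dexamethasone against 4.11 with saline, the latter not well above background. The direction of Col17a1 at 24 h thus depends on the probe.

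**Figure D5:**
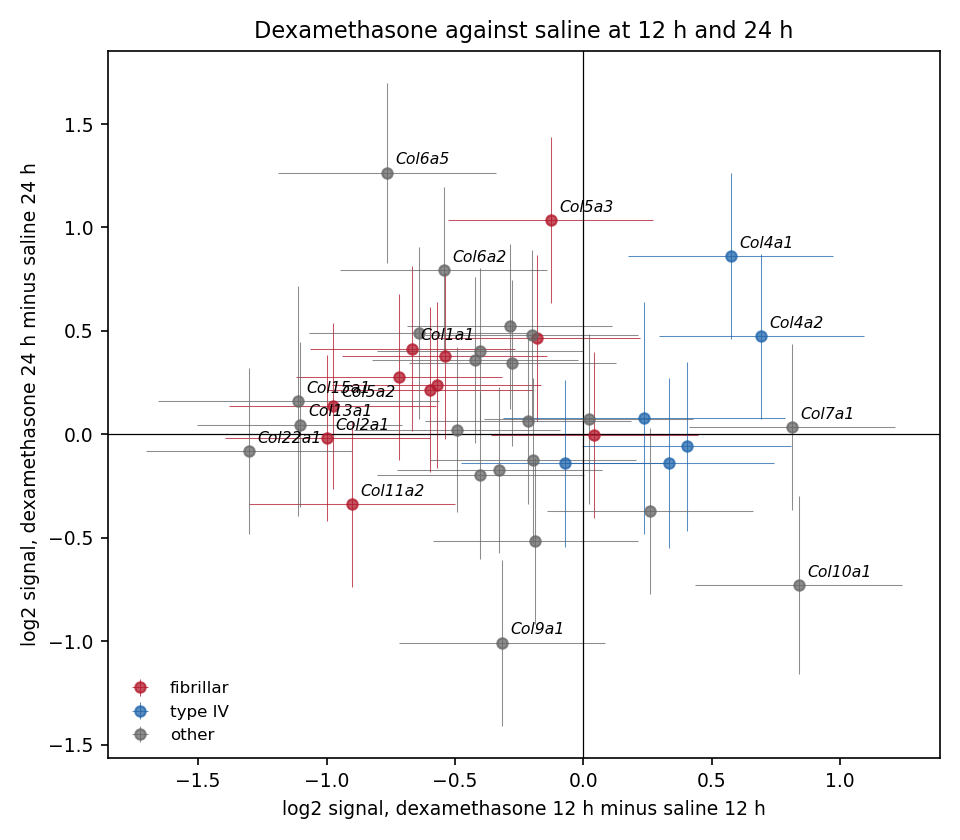
Each of 39 collagens measured on all 4 arrays is placed by its log2 difference, dexamethasone minus saline, at 12 h (horizontal) and 24 h (vertical), with bars of the 95% spot error. Col4a1 (0.57 and 0.86) and Col4a2 (0.69 and 0.47) are above 0 on both axes beyond their bars, and most fibrillar chains lie left of 0 and at or above it.

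The differences at 12 h and 24 h had opposite signs, each beyond the 95% spot error, for 6 of these 39 collagens, beside 196 of 22497 genes (0.871%) measured on all 4 arrays. They were Col1a1, Col6a2, Col6a5, Col10a1, Col14a1 and Col16a1, and the difference between the times was not tested.

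Over both times, dexamethasone was tested against saline with limma on 4 arrays, time as a term and 1 residual degree of freedom. The 2 times served as replicates of 1 dexamethasone effect, so a difference that changed between them counted as spread. At an adjusted p of 0.05 after Benjamini-Hochberg, 0 of 43 collagens and 0 of 24767 genes (0.0%) passed, while 4 collagens and 3635 genes (14.7%) had an unadjusted limma p under 0.05, a share of collagens below that of all genes. The 4 were Col4a1 at 0.72 (SE 0.13, limma adjusted p = 0.173), Col4a2 at 0.58 (SE 0.13, limma adjusted p = 0.201), Col11a2 at -0.62 (SE 0.17, limma adjusted p = 0.251) and Col9a1 at -0.66 (SE 0.20, limma adjusted p = 0.272). Each had the same sign at both times. In simulated data of this design, 4% of genes changed 2-fold and 65% of those changed 4-fold were recovered. With dim probes kept in, 951 of 37318 genes (2.55%) passed, and Col4a1 (limma adjusted p = 0.0159) and Col4a2 (limma adjusted p = 0.0422) were the collagens among them, 2 of 44. Under the other scalings 0 collagens passed, spike-in scaling included, which called 558 genes.

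Chains that share a molecule were compared by the widest gap between their differences. A gap within spot error does not show that chains differed alike. With noise only, for example, type IX chains ran from -0.27 to 0.23 within it. For 8 collagen molecules with several chains (types I, V, VI, VIII, IX, XI and 2 sets of type IV chains), the widest gap between partner chains was within spot error for 4 with noise only, 6 with saline at 12 h, 6 with saline at 24 h, 7 with dexamethasone at 12 h and 6 with dexamethasone at 24 h. Type VI chains parted in both saline comparisons, by 1.13 and 0.96, on the Col6a2 probe used. Its other probes were at 0.10 and -0.17 with saline 12 h and at -0.66 and 0.21 with saline 24 h. The size of the gap thus depends on the Col6a2 probe. At 12 h, Col6a1 (-0.54) and Col6a3 (0.15) by themselves lay further apart than the 0.57 that spot error allows. At 24 h the chains parted with the Col6a2 probe at -0.66 but not with that at 0.21.

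Genes that make, process and bind collagen were followed through 71 fixed genes. With noise only, 1 of 69 measured was at least 2-fold higher (2.64% of all genes) and 1 lower (3.18% of all genes), Tll1 (a procollagen protease, 1.48) and Gp6 (a platelet collagen receptor, -1.01), so the counts did not exceed the background. All 20 genes of chain modification and folding stayed within 2-fold, at a median of -0.03. Cross-linking enzymes were below baseline in 5 of 6, with Loxl4 at -0.80, Loxl2 at -0.62 and Lox at -0.55. Fibril-associated proteins were below it in 9 of 12, with periostin (Postn) at -0.83 and lumican (Lum) at -0.78. Beside both counts, 52.2% of all genes were below baseline. In the saline comparisons, Tnxb (tenascin X) was the 1 gene at least 2-fold higher at each time, at 1.24 and 1.15, and the genes lower were P4ha3 at 12 h (-1.29) and Kera, keratocan, at 24 h (-1.64). These counts too were at or below the background, which was 4.41% higher and 3.42% lower at 12 h and 1.72% each way at 24 h.

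With dexamethasone at 12 h, 0 of 68 such genes were at least 2-fold higher (1.67% of all genes) and 1 lower (1.88% of all genes), which is near the background. It was Lair1, an inhibitory collagen receptor of leukocytes, at -1.57. The collagen chaperone Serpinh1 was -0.72, Crtap -0.64 and Fkbp10 -0.61, the last 2 helpers of chain modification, and Pcolce, which speeds procollagen cleavage, -0.84. Marrow markers had a median of -0.81 beside Lair1. With dexamethasone at 24 h, 1 of 69 was at least 2-fold higher (1.63% of all genes), Loxl4 at 1.33, and 0 lower. Of the 20 chain modification genes 11 were below saline at a median of -0.03, while Creb3l1 (0.70), P4ha1 (0.68), P4ha2 (0.59) and Serpinh1 (0.54) had the widest differences, all above saline.

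The sequence upstream of the fibrillar genes was read for motifs, since members differed together. RefSeq windows of 250 bases before the gene start (GRCm38.p6) were given for 35 of the 44 collagens. Col1a2 and Col11a1 are shown as fibrillar chains whose windows hold a CCAAT box, the element bound by the factor NF-Y, written 5′ to 3′ on the strand of the gene with the box, or its complement ATTGG, in capitals.
Col1a2: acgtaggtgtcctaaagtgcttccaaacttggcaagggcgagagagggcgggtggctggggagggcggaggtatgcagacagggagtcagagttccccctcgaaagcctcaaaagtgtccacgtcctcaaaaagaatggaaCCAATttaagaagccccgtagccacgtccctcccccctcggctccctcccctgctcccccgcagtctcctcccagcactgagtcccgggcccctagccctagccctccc
Col11a1: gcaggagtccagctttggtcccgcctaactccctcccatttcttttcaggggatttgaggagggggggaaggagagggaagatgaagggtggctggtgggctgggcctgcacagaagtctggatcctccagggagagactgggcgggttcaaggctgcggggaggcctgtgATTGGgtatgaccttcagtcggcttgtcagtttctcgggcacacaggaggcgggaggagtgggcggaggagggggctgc
They lie at chr6:4505368-4505617 and chr3:114030290-114030539, both on the plus strand. CCAAT on either strand was in 13 of 35 collagen genes (37.1%), 3 of 8 fibrillar genes among them, beside 37.5% of 27025 genes, so the share is near that of all genes. TATAAA on either strand was in 5 of 35 (14.3%) beside 14.3%. A palindromic glucocorticoid response element, AGAACA followed by any 3 bases and TGTTCT, which reads the same on both strands, was in 0 of 38 collagen windows and in 3 of 32851 windows in all.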

How the data were processed

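The members, classes and gene lists were chosen with earlier results of these data known. The deposited scanner files hold intensity values, which per the file headers the authors extracted with Agilent Feature Extraction 10.10.1.1 with background subtraction, and which place probes on mm9. The authors' series matrix, deposited as log2 values, matched each array's log2 processed signal up to 1 constant (100% of 56305 probes spotted once, within 0.001). Medians of its columns ran from -2.99 (noise only) over -2.96 (baseline), -2.94 (saline 24 h), -2.91 (dexamethasone 24 h) and -2.86 (saline 12 h) to -2.82 (dexamethasone 12 h). This match settles its scale, centring and direction.

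Outlier spots were left out of the 59305 non-control spots of each array, log2 of the processed signal was taken, spots of a probe were averaged, and each array's 75th percentile was subtracted. RefSeq accessions (GRCm38.p6) named 32994 of 56605 probes, 67 of the 91 collagen probes among them. The brightest probe on average stood for its gene. The median SD over probes spotted 10 times was 0.035 to 0.038 on the log2 scale, and precision is limited by having 1 array per group.

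Every fibrillar and type IV chain, and any other chain at least 2-fold apart, is given with its values. Of each further list up to 4 measured genes with the widest difference are named, and cell type markers where they bear on a collagen. Lists were described by counts and medians without a chance test. The dexamethasone test used limma 3.58.1 in R 4.3.3 (lmFit, and eBayes with a trend) on genes above background on 2 or more of the 4 arrays, and was tested on simulated data. Its p-values treat the 2 times as replicates of 1 dexamethasone effect. The spread they measure is that between the differences at 12 h and at 24 h, which were on different slides. Alternatives were other scalings (quantile, detected probes, spike-in probes, normexp with an offset of 50), the series matrix, looser and stricter background filters, averaging of probes, other fold thresholds and other class limits.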

Additional observations from a re-analysis of the deposited data

Results flagged for a closer look

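The effect of dexamethasone at 12 h and at 24 h had opposite signs, each beyond its 95% spot error, for 6 of 39 collagens, beside 0.871% of 22497 genes. With 1 array per group the difference between the times was not tested, and the 2 times were on different slides. Col1a1 was -0.67 at 12 h and 0.41 at 24 h on the log2 scale, dexamethasone minus saline. Among type VI chains, Col6a5 was -0.76 and 1.26, and Col6a2 -0.54 and 0.79, with its other probes at -0.095 and 0.86 and at -0.11 and 0.014. Of the collagens that sit on fibril surfaces, Col14a1 was -0.64 and 0.49, and Col16a1 -0.40 and 0.40. Col10a1 went the other way, at 0.84 and -0.73. Under spike-in scaling the median of all genes lay at 0.27 at 12 h and at -0.098 at 24 h, in place of -0.025 and -0.0049.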

How the results depend on the processing

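Across alternatives there were 14 sign changes of a class median, counted once per median and setting, all with a main value of at most 0.085 either way. They fell on type IV chains with noise only, fibrillar chains with saline 12 h and every class with saline 24 h. With dexamethasone 24 h they fell on type IV and other chains. The series matrix and scaling on detected probes kept the 21 main counts and medians close to the main value. The count of collagens at least 2-fold apart was 12 (noise only), 4 (saline 12 h), 2 (saline 24 h), 3 (dexamethasone 12 h) and 3 (dexamethasone 24 h). At 3-fold these were 3, 1, 1, 0 and 0. At 1.5-fold they were 10 for saline 12 h, 8 for saline 24 h, 14 for dexamethasone 12 h and 6 for dexamethasone 24 h. With normexp and quantile normalization they were 6, 1 and 1 for noise only, saline 12 h and saline 24 h, and 0 for dexamethasone 24 h. Without a filter on dim probes they were 7, 4 and 5 for saline 12 h, saline 24 h and dexamethasone 24 h. Saline 12 h gave 2 with the mean over probes, and saline 24 h gave 1 among genes above background on all 6 arrays. Spike-in scaling gave 18 for saline 12 h, all lower, where 30.6% of all genes were lower, and 4 for saline 24 h. For dexamethasone 12 h it turned 0 higher and 3 lower into 2 higher and 1 lower.

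Spike-in scaling moved the median of all genes from 0.06 to -0.75 for saline 12 h, and the fibrillar, type IV and other medians to -0.76, -1.23 and -0.87. For saline 24 h it gave -0.24, -0.33 and -0.21 with all genes at -0.29. For dexamethasone 12 h it gave -0.30, 0.66 and -0.021 with all genes at 0.27. The fibrillar median there was -0.39 with quantile normalization and -0.33 with normexp. The mean over probes gave 0.27 for type IV chains with saline 24 h. The cause of these shifts was not tested.

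In limma the number of collagens called was 2 of 44 without the filter, where 2.55% of all genes were called. It was 0 in each of the 4 fits that left out 1 array, which had 1 array in an arm and no time term and say nothing about stability. No paired analysis was possible beyond the time term, which already sets each dexamethasone array against the saline array of its time, because each group has 1 array. Class medians rest on 6 to 26 genes, and no result has a replicate array behind it.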
